A study of Mus musculus with 11 samples.

Results

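Replication and mitosis genes were examined in maxillary molar tooth germs of mouse embryos at embryonic day 14.5 (E14.5). The set held 50 genes of the 16755 listed, chosen by their symbols from textbook roles, with earlier results of these data known, and all 50 were listed. Of these, 25 act in or before DNA synthesis (S-phase genes) and 25 act in G2 phase or mitosis (G2/M genes). RNA was sequenced from 4 wild-type (Cilk1+/+), 4 Cilk1-/- and 3 Cilk1-/-;PCS1–MRCS1△/△ libraries, referred to below as the compound mutant in the last case. The replicates are stated as biological, each with n = 6, but it is not stated whether 6 is a number of embryos or of tooth germs. Per the labels, the embryos were littermates, and per the study's methods, the mice were kept on the C57BL/6 background. Cilk1 encodes a kinase of the primary cilium, and Cilk1-/- mice lack exon 6 of the gene after a cross of Cilk1 fl/fl mice with EIIa-Cre mice, whose Cre acts in the early embryo and so in all tissues. The compound mutant carries the same Cilk1 deletion and, in addition, is homozygous for a 70 kb deletion that spans PCS1 and MRCS1 and takes out enhancers of Shh active in oral epithelium. No group analysed here carries the 70 kb deletion alone.

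Cells enter S phase when cyclin E with CDK2 inactivates the retinoblastoma proteins and frees E2F factors, which turn on genes for replication licensing, the MCM helicase, DNA polymerases and nucleotide supply. Later genes, for mitotic cyclins, kinases, spindle motors and the spindle checkpoint, are held off by the DREAM complex through CHR elements near their start sites, and are then activated by MYB-MuvB and FOXM1, often together with NF-Y at CCAAT boxes. At the cap stage of the molar, most epithelial and mesenchymal cells divide, while the cells of the enamel knot have left the cell cycle.

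Promoters of the set are shown first, because the division into S-phase and G2/M genes can be read in them in part. RefSeq promoter windows on GRCm38.p6, each with 250 bases before the start site and 50 after it, were matched by symbol for 21 S-phase and 19 G2/M genes, and 43 windows were found for these 40 genes. E2F sites were searched as TTTCCCGC, TTTGGCGC, TTTGCCGC and TTTCGCGC, CHR elements as TTTGAA and TTTAAA, and the CCAAT box as CCAAT, each on both strands. An E2F site was present in 9 of 24 S-phase windows (37.5%), in 1 of 19 G2/M windows (5.26%) and in 2.26% of all 32851 windows. A CHR element was present in 17 of 19 G2/M windows (89.5%), in 7 of 24 S-phase windows (29.2%) and in 27.6% of all windows. A CCAAT box was present in 17 of 19 G2/M windows (89.5%), in 16 of 24 S-phase windows (66.7%) and in 37.4% of all windows. A CCAAT box and a CHR element together were found in 16 of the G2/M windows (84.2%), in 5 of the S-phase windows (20.8%) and in 10.7% of all windows. A match describes the letters in the window and does not show that a factor binds there. The 200 bases before the start site are given below, 5′ to 3′ on the strand of the gene, for a pair of MCM genes with overlapping E2F sites and for G2/M genes whose levels are described later, with all matches in capitals.

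Mcm5, chr8:75109309-75109508, plus strand, where an E2F site on each strand overlap in the first run of capitals:
Mcm5: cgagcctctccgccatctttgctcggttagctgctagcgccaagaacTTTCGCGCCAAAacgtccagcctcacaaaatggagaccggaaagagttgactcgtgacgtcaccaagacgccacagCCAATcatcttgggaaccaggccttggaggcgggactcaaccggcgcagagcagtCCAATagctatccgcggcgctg
Mcm6, chr1:128359706-128359905, minus strand, with an overlapping pair of E2F sites and a further single site:
Mcm6: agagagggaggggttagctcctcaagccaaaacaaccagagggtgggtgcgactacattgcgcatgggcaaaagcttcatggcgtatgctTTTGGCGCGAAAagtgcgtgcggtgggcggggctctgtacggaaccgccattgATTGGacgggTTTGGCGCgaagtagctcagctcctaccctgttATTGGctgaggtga
Cdk1, chr10:69352913-69353112, minus strand, the G2/M window with an E2F site besides its CHR elements and CCAAT boxes:
Cdk1: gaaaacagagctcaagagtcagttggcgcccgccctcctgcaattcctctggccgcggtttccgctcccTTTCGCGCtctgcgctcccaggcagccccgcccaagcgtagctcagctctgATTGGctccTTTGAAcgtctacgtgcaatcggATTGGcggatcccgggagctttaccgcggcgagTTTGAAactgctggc
Ccnb1, chr13:100786487-100786686, minus strand, with CCAAT boxes followed by a CHR element:
Ccnb1: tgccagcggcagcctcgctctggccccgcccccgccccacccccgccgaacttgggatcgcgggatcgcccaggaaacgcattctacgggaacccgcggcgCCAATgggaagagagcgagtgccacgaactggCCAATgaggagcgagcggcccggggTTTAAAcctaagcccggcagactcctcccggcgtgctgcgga
Plk1, chr7:122159235-122159434, plus strand, with CHR elements downstream of the middle of the stretch and a CCAAT box near the start site:
Plk1: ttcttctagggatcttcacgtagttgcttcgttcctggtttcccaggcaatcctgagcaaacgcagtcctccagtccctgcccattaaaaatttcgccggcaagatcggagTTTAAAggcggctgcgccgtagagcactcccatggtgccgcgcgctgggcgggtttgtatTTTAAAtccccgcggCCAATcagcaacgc
Cdc20, chr4:118437344-118437543, minus strand, with a CHR element between CCAAT boxes:
Cdc20: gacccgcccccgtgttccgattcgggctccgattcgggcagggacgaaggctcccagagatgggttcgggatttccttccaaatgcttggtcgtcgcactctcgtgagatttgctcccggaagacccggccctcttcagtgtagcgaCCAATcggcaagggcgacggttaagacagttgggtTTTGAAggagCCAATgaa
Mki67, chr7:135716380-135716579, minus strand, with CCAAT boxes followed by neighbouring CHR elements:
Mki67: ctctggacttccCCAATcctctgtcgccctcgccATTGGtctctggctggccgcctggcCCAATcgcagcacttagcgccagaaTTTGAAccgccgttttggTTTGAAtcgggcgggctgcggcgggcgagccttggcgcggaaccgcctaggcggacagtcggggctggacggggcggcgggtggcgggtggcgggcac

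Levels are given as deposited, on a log2 scale, and all fold changes below are log2 differences between genotype means with their standard error (SE). The depth behind each value is unknown, since counts were not used here, so the spread between libraries is the one measure of precision. Cilk1 itself, listed under its older symbol Ick, was at 3.45 to 3.60 in wild type, at 2.72 to 2.86 in Cilk1-/- and at 2.60 to 2.67 in the compound mutant. Compound mutant replicate 2 stood apart from its group in these genes: its value was the highest of the 3 compound mutant libraries for 49 of the 50 genes, all but Mki67. It lay below all wild-type libraries for 10 of the 50 genes and above all of them for 9, whereas compound mutant replicates 1 and 3 lay below all wild-type libraries for 49 and 48. Of all genes, 35.7%, 29.4% and 35.9% lay below all wild-type libraries in compound mutant replicates 1, 2 and 3. The shares of all genes highest in replicate 2 of the group, or above all wild-type libraries there, are not given here. Results on the compound mutant are therefore followed by their values without replicate 2, on which the calls of many genes depend. That library was singled out by its high values for these same genes. The p-values without it are thus partly set by that choice and are no independent support for lower levels.

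Over all 11 libraries the set was lower in Cilk1-/- than in wild type, for replication and mitosis genes alike. The mean level of the 25 S-phase genes was 4.77, 4.80, 4.89 and 4.81 in wild-type replicates 1 to 4 and 4.65, 4.62, 4.50 and 4.57 in Cilk1-/- replicates 1 to 4. In compound mutant replicates 1, 2 and 3 it was 4.55, 4.84 and 4.44. The 4 Cilk1-/- libraries were below all wild-type libraries, and compound mutant replicate 2 was within the wild-type range while the other two were below it. The mean level of the 25 G2/M genes was 4.97, 4.99, 5.09 and 5.08 in wild type, 4.83, 4.80, 4.68 and 4.72 in Cilk1-/-, and 4.65, 4.99 and 4.68 in the compound mutant. The order of the libraries was thus much the same in both classes, as the plot of class means shows. In bulk tissue such as this, fewer dividing cells and less RNA of these genes per dividing cell cannot be told apart.

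**Figure D1:**
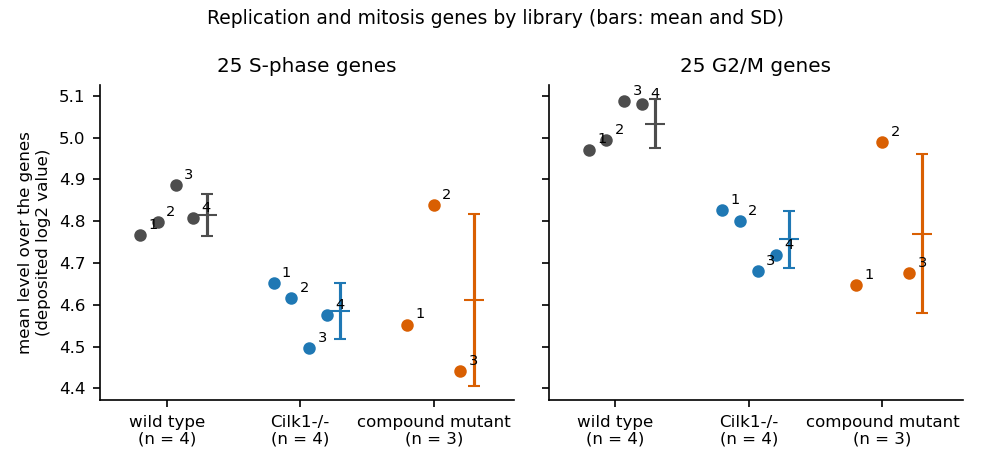
Mean deposited log2 level of the 25 S-phase genes (left) and the 25 G2/M genes (right) in each library, with the replicate number beside each point and the mean ± SD of each genotype as a bar. The 4 Cilk1-/- libraries lie below the 4 wild-type libraries in both panels, and compound mutant replicate 2 lies at 4.84 and 4.99, far above the other 2 compound mutant libraries.

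In Cilk1-/- against wild type, all 50 genes had a log2 fold change below 0, as did 48.8% of the 16755 genes. The fold changes ran from −0.44 (Plk1) to −0.01 (Ccne2), with a median of −0.25 for S-phase genes and −0.29 for G2/M genes, against 0.00 for all genes. These medians correspond to −15.9% and −18.1% once turned back from the log2 scale. Libraries did not overlap for 42 genes, 20 of S phase and 22 of G2/M, with all 4 Cilk1-/- libraries below all 4 wild-type libraries, against 10.7% of all genes. By limma's moderated test, 43 genes (20 S-phase and 23 G2/M) were lower at an unadjusted p under 0.05, against 11.1% of all genes. After Benjamini-Hochberg adjustment over all 16755 genes, 6 fell at an adjusted p under 0.05 (Mcm10, Mki67, Cdc20, Kif20a, Kif23 and Foxm1), against 1.38% of all genes. None of the 50 reached a fold change of 1.5 with that adjusted p, a limit that 0.215% of all genes passed in this direction.

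Wild-type and Cilk1-/- libraries of the same number were not independent in the deposited values. Their deviations from the genotype means had correlations of −0.91, −0.90, −0.94 and −0.86 over the 50 genes, for numbers 1 to 4. Opposite deviations widen the spread of the differences between same-numbered libraries, which the fit without a block does not take into account. The SE and p-values of that fit for Cilk1-/- against wild type are therefore likely too small. With the replicate number as a block, 0 of the 50 genes passed the adjusted threshold, against 0.0179% of all genes, and the lowest adjusted p was 0.141 for Mcm10. At an unadjusted p under 0.05, 39 genes (16 S-phase and 23 G2/M) were lower with the block, against 7.63% of all genes. The count of 6 was 3 without wild-type replicate 1, 2 without Cilk1-/- replicate 1, and 0 without wild-type replicate 2, 3 or 4 or Cilk1-/- replicate 2, 3 or 4, when 0.113% to 0.722% of all genes passed. It was 17 without compound mutant replicate 1 (2.79% of all genes), 17 without replicate 3 (3.34% of all genes) and 34 (13 S-phase and 21 G2/M) without replicate 2, when 4.23% of all genes passed. The 3 genotypes share one estimate of the spread, and without compound mutant replicate 2 the fold change of Mcm2 kept its value while its SE was 0.06 in place of 0.08.

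**Figure D2:**
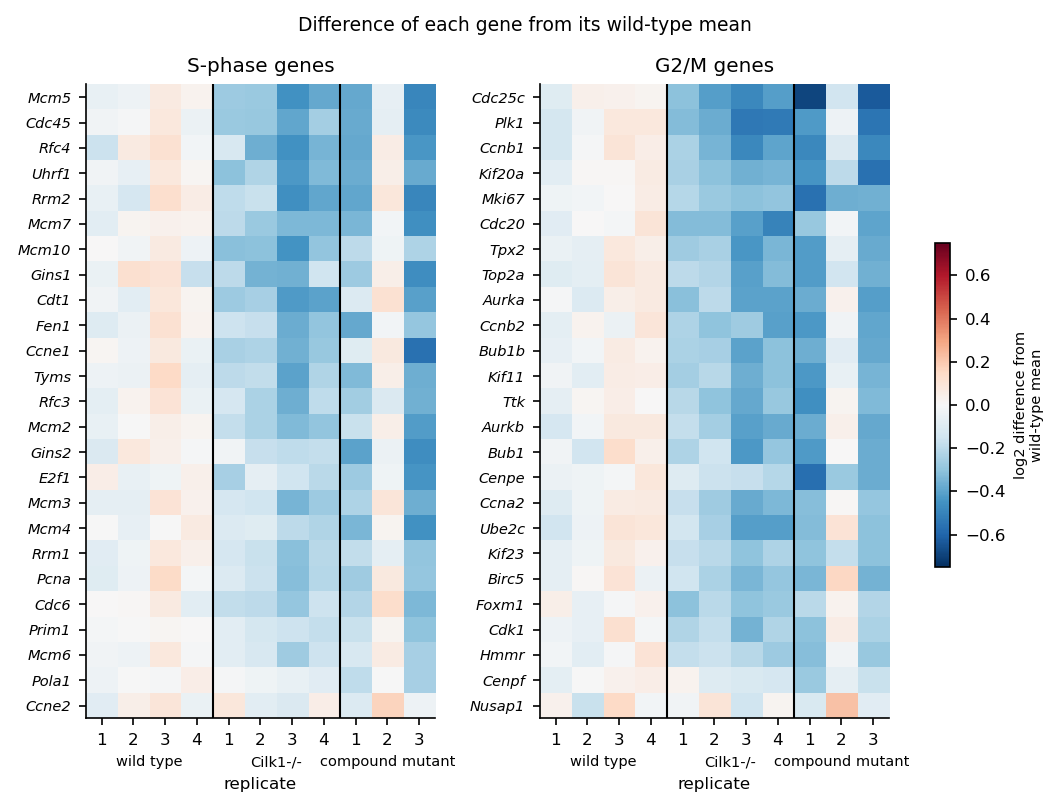
Difference of each gene from its wild-type mean (log2, colour) in each of the 11 libraries (columns, by genotype and replicate), for S-phase genes (left) and G2/M genes (right), sorted by their mean difference over the 7 mutant libraries. Blue fills the Cilk1-/- columns and compound mutant columns 1 and 3. Compound mutant column 2 is pale or red for most genes but blue for Mki67 and Cenpe, and Ccne2 and Nusap1 at the bottom show little blue.

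In the compound mutant against wild type, 48 of the 50 genes were below 0, as were 50.6% of all genes, and the 2 others were Ccne2 and Nusap1, both at 0.01. The median was −0.22 for S-phase genes and −0.26 for G2/M genes, against 0.00 for all genes. At an adjusted p under 0.05, 7 genes fell, all of them G2/M genes (Mki67, Cenpe, Kif20a, Kif23, Cdc25c, Top2a and Bub1b), against 3.75% of all genes. None of the 50 reached a fold change of 1.5 as well, against 0.633% of all genes. At an unadjusted p under 0.05, 33 genes (13 S-phase and 20 G2/M) were lower, against 13.8%. Only 10 genes had all 3 compound mutant libraries below all wild-type libraries (Mcm5, Cdc45, Rfc3, Mki67, Top2a, Cdc25c, Bub1b, Cenpe, Kif20a and Kif23), against 9.05% of all genes.

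Without compound mutant replicate 2, all 50 genes were below 0 in the compound mutant, as were 50.2% of all genes. Of the 50, 45 (21 S-phase and 24 G2/M) fell at an adjusted p under 0.05, against 10.4% of all genes. Since the library was singled out by these same genes, that count is partly set by its removal. The medians were then −0.33 for S-phase and −0.39 for G2/M genes. Cdc25c alone of the set also passed a fold change of 1.5, at −0.66, against 671 of all 16755 genes in either direction. With the replicate block in the full data, 0 genes passed the adjusted threshold, against 0.119% of all genes, and 26 (10 S-phase and 16 G2/M) were lower at an unadjusted p under 0.05, against 8.97%. The lowest adjusted p with the block was 0.0712, for Mki67. Leaving out any other library gave between 2 (wild-type replicate 4) and 5 genes, with 3 without wild-type replicate 2, 4 without wild-type replicate 1 or 3, 4 without Cilk1-/- replicate 2 or 4, and 4 without compound mutant replicate 1 or 3, when 0.818% to 4.87% of all genes passed.

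**Figure D3:**
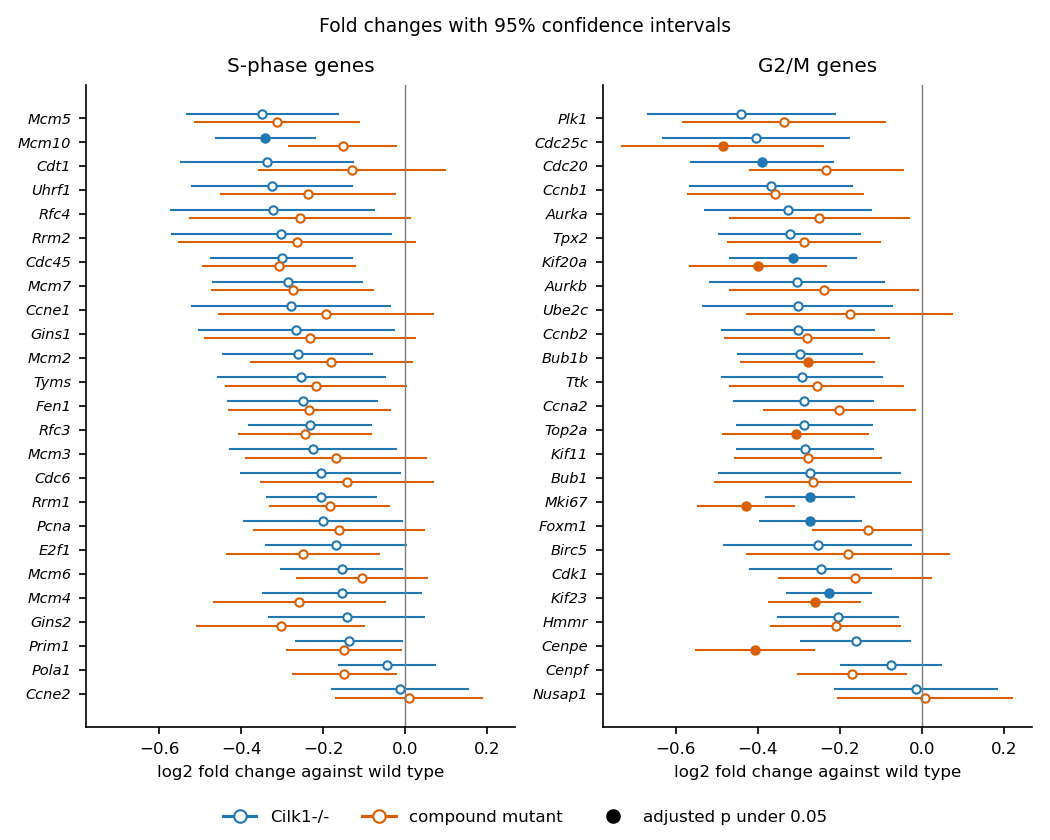
Log2 fold change against wild type of each gene, with its 95% confidence interval from limma, in Cilk1-/- (blue) and the compound mutant (orange). Filled points have an adjusted p under 0.05, 6 genes in Cilk1-/- and 7 in the compound mutant, and all points but those of Ccne2 and Nusap1 in the compound mutant lie left of 0.

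Licensing genes load the helicase onto origins in G1. Mcm10, which helps to switch the loaded helicase on, was at 3.54, 3.51, 3.61 and 3.50 in wild type, at 3.23, 3.23, 3.09 and 3.24 in Cilk1-/-, and at 3.34, 3.51 and 3.31 in the compound mutant. All Cilk1-/- libraries were below all wild-type and all compound mutant libraries. It fell by 0.34 (SE 0.05, adjusted p = 0.0166) in Cilk1-/- and was at −0.15 (SE 0.06, adjusted p = 0.138) in the compound mutant. Cdt1, the loading factor that geminin inhibits, was at 4.52, 4.48, 4.64 and 4.58 in wild type, at 4.28, 4.30, 4.13 and 4.15 in Cilk1-/-, and at 4.45, 4.67 and 4.15 in the compound mutant. Values of the compound mutant spanned both ranges, and the fold changes were −0.34 (SE 0.09, adjusted p = 0.0874) and −0.13 (SE 0.10, adjusted p = 0.437). Cdc6, which loads the helicase together with CDT1, was at −0.21 and −0.14. Without compound mutant replicate 2, Mcm10 fell by 0.21 (adjusted p = 0.026) and Cdc6 by 0.28 (adjusted p = 0.0157) in the compound mutant. Cdt1 was then at −0.25 (adjusted p = 0.0672). These p-values are partly set by the choice of the library left out.

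The replicative helicase opens the DNA ahead of the polymerases, and all 9 of its genes in the set were below 0 in both mutants. Their medians were −0.26 and −0.26. Gins3 and Gins4, subunit genes outside the set, were counted with the further replication genes below. Gins3 was at 3.02 to 3.08 in wild type and 2.79 to 2.93 in Cilk1-/-, and Gins4 at 4.44 to 4.55 and 4.46 to 4.57. Mcm2, a subunit of the MCM ring, was at 5.48, 5.53, 5.57 and 5.55 in wild type, at 5.35, 5.29, 5.20 and 5.23 in Cilk1-/-, and at 5.37, 5.58 and 5.11 in the compound mutant. Compound mutant replicate 2 was above every wild-type library and replicate 3 below every other library. Its fold changes were −0.26 (SE 0.08, adjusted p = 0.111) and −0.18 (SE 0.09, adjusted p = 0.219). Mcm6, another subunit, whose promoter with the overlapping E2F sites is printed above, was at 6.07, 6.06, 6.18 and 6.09 in wild type, at 6.02, 5.98, 5.84 and 5.95 in Cilk1-/-, and at 5.98, 6.16 and 5.85 in the compound mutant. Its fold change of −0.15 (SE 0.07, adjusted p = 0.218) in Cilk1-/- was close to the smallest among the MCM genes, and that of Mcm5 (−0.35, SE 0.08, adjusted p = 0.0557) was the largest. Gins2, of the GINS complex that joins MCM and CDC45, was at 4.53, 4.72, 4.67 and 4.62 in wild type, at 4.61, 4.46, 4.44 and 4.46 in Cilk1-/-, and at 4.23, 4.59 and 4.17 in the compound mutant. Its fold changes were −0.14 (SE 0.09, adjusted p = 0.38) and −0.30 (SE 0.09, adjusted p = 0.0731). Without compound mutant replicate 2, whose removal partly sets the p-values, Mcm2 fell by 0.29 (adjusted p = 0.0204) in the compound mutant. Mcm5 then fell by 0.44 (adjusted p = 0.00286) and Gins2 by 0.43 (adjusted p = 0.00312). Mcm6 was at −0.19 (adjusted p = 0.0591).

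Of 6 genes of the replication fork and 3 of nucleotide supply, none passed the adjusted threshold in either mutant, and their fold changes in Cilk1-/- ran from −0.32 (Rfc4) to −0.04 (Pola1). Pcna, the sliding clamp of the polymerases, was at 7.13, 7.18, 7.37 and 7.20 in wild type, at 7.11, 7.06, 6.90 and 7.01 in Cilk1-/-, and at 6.95, 7.29 and 6.93 in the compound mutant. The Cilk1-/- and wild-type libraries did not overlap but lay close together, and the fold changes were −0.20 (SE 0.09, adjusted p = 0.225) and −0.16 (SE 0.09, adjusted p = 0.291). Pola1, the catalytic subunit of DNA polymerase alpha, was at 3.27, 3.30, 3.29 and 3.35 in wild type, at 3.30, 3.27, 3.25 and 3.22 in Cilk1-/-, and at 3.11, 3.30 and 3.05 in the compound mutant. It had among the smallest fold changes of the set in Cilk1-/- (−0.04, SE 0.05, adjusted p = 0.693) and was at −0.15 (SE 0.06, adjusted p = 0.134) in the compound mutant. Rrm2, the regulated subunit of ribonucleotide reductase, was at 5.61, 5.54, 5.79 and 5.72 in wild type, at 5.47, 5.50, 5.21 and 5.27 in Cilk1-/-, and at 5.28, 5.75 and 5.18 in the compound mutant. Its spread within genotypes was wide, and its fold changes were −0.30 (SE 0.12, adjusted p = 0.189) and −0.26 (SE 0.13, adjusted p = 0.22). The other fork and nucleotide genes, Rfc3, Rfc4, Prim1, Fen1, Rrm1 and Tyms, ranged from −0.32 to −0.14 in Cilk1-/- and from −0.26 to −0.15 in the compound mutant. Once compound mutant replicate 2 was removed, all 9 genes fell in the compound mutant, a result partly set by that removal. Pcna then fell by 0.28 (adjusted p = 0.0307), Pola1 by 0.22 (adjusted p = 0.00975) and Rrm2 by 0.44 (adjusted p = 0.0153).

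Of the 4 genes that control the start of S phase or keep DNA methylation, none passed the adjusted threshold in either mutant. E2f1, an activating E2F factor, was at 4.27, 4.16, 4.18 and 4.25 in wild type, at 3.96, 4.15, 4.06 and 4.01 in Cilk1-/-, and at 3.94, 4.18 and 3.77 in the compound mutant. The fold changes were −0.17 (SE 0.08, adjusted p = 0.246) and −0.25 (SE 0.08, adjusted p = 0.0971). Ccne1, cyclin E1, was at 4.11, 4.06, 4.17 and 4.05 in wild type, at 3.86, 3.87, 3.74 and 3.82 in Cilk1-/-, and at 4.01, 4.17 and 3.54 in the compound mutant. Its values were tight in Cilk1-/- and spread widely in the compound mutant, with fold changes of −0.28 (SE 0.11, adjusted p = 0.181) and −0.19 (SE 0.12, adjusted p = 0.316). Ccne2, cyclin E2, was at 2.27, 2.40, 2.45 and 2.31 in wild type, at 2.44, 2.28, 2.25 and 2.41 in Cilk1-/-, and at 2.25, 2.53 and 2.32 in the compound mutant. The 3 genotypes overlapped fully, with fold changes of −0.01 (95% confidence interval −0.18 to 0.15) and 0.01 (−0.17 to 0.19). Uhrf1, which keeps DNA methylation through replication, was at −0.32 (SE 0.09, adjusted p = 0.0798) and −0.24 (SE 0.10, adjusted p = 0.152). After removal of compound mutant replicate 2, E2f1 fell by 0.36 (adjusted p = 0.00733) and Uhrf1 by 0.37 (adjusted p = 0.00442) in the compound mutant. Ccne1 was then at −0.33 (adjusted p = 0.0565) and Ccne2 at −0.07 (adjusted p = 0.527). The removal partly sets these p-values.

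**Figure D4:**
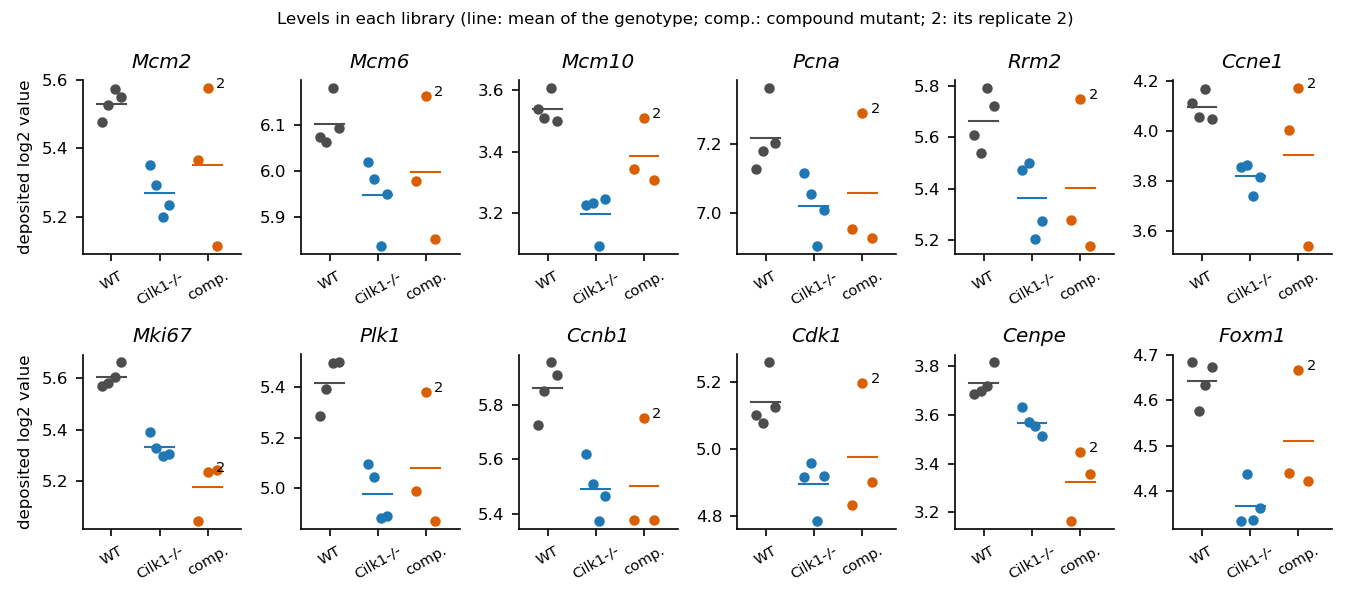
Deposited log2 level of 12 genes in each library, by genotype (comp.: compound mutant), with the genotype mean as a line and compound mutant replicate 2 marked. For Mcm2, Pcna, Rrm2, Ccne1, Cdk1 and Foxm1 replicate 2 lies among the wild-type libraries or above them, whereas for Mki67 and Cenpe it lies below all of them. Axes differ between panels and do not start at 0.

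Of the G2/M class, the chromosome gene Mki67 had the lowest adjusted p of the set in the compound mutant. Mki67, the proliferation antigen that coats mitotic chromosomes, was at 5.57, 5.58, 5.61 and 5.66 in wild type, at 5.39, 5.33, 5.30 and 5.31 in Cilk1-/-, and at 5.05, 5.24 and 5.24 in the compound mutant. The 3 ranges did not overlap, and compound mutant replicate 2 was as low as replicate 3. Mki67 fell by 0.27 (SE 0.05, adjusted p = 0.024) in Cilk1-/- and by 0.43 (SE 0.05, adjusted p = 0.00328) in the compound mutant. Top2a, the topoisomerase that untangles sister chromatids, was at 6.44, 6.45, 6.62 and 6.59 in wild type, at 6.33, 6.31, 6.12 and 6.20 in Cilk1-/-, and at 6.10, 6.38 and 6.16 in the compound mutant. Its fold change was −0.29 (SE 0.07, adjusted p = 0.0694) in Cilk1-/-, and it fell by 0.31 (SE 0.08, adjusted p = 0.0485) in the compound mutant. With compound mutant replicate 2 left out, Mki67 fell by 0.46 (adjusted p = 0.00164) and Top2a by 0.39 (adjusted p = 0.00881) there. The choice of the library left out partly sets these p-values.

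The cyclin-CDK genes drive entry into mitosis. Ccnb1, cyclin B1, was at 5.73, 5.85, 5.95 and 5.91 in wild type, at 5.62, 5.51, 5.38 and 5.46 in Cilk1-/-, and at 5.38, 5.75 and 5.38 in the compound mutant. Its fold changes of −0.37 (SE 0.09, adjusted p = 0.0586) and −0.36 (SE 0.10, adjusted p = 0.0531) missed the adjusted threshold in both mutants. Cdk1, the kinase that cyclin B1 activates, was at 5.10, 5.08, 5.26 and 5.12 in wild type, at 4.91, 4.96, 4.79 and 4.92 in Cilk1-/-, and at 4.83, 5.20 and 4.90 in the compound mutant. The fold changes of Cdk1, whose promoter holds an E2F site as well as CHR elements, were −0.25 (SE 0.08, adjusted p = 0.112) and −0.16 (SE 0.08, adjusted p = 0.236). Cdc25c, a phosphatase that activates CDK1, was at 4.04, 4.17, 4.17 and 4.15 in wild type, at 3.82, 3.72, 3.65 and 3.72 in Cilk1-/-, and at 3.44, 3.99 and 3.50 in the compound mutant. It was at −0.40 (SE 0.10, adjusted p = 0.0647) in Cilk1-/- and fell by 0.49 (SE 0.11, adjusted p = 0.032) in the compound mutant, the largest fold change of the set. Foxm1, which activates G2/M promoters, was at 4.68, 4.58, 4.63 and 4.67 in wild type, at 4.34, 4.44, 4.34 and 4.36 in Cilk1-/-, and at 4.44, 4.67 and 4.42 in the compound mutant. Foxm1 fell by 0.27 (SE 0.06, adjusted p = 0.0371) in Cilk1-/- and was at −0.13 (SE 0.06, adjusted p = 0.189) in the compound mutant. Once compound mutant replicate 2 was removed, all 4 fell in the compound mutant, a result partly set by that removal. Ccnb1 then fell by 0.48 (adjusted p = 0.00413) and Cdk1 by 0.27 (adjusted p = 0.0176). Cdc25c fell by 0.66 (adjusted p = 0.000609) and Foxm1 by 0.21 (adjusted p = 0.0125).

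Of 4 mitotic kinase and passenger genes none passed the adjusted threshold in either mutant, and of 7 checkpoint, kinetochore and anaphase genes 1 passed in Cilk1-/- and 2 in the compound mutant. Plk1, the Polo-like kinase of mitotic entry and exit, was at 5.29, 5.39, 5.50 and 5.50 in wild type, at 5.10, 5.04, 4.88 and 4.89 in Cilk1-/-, and at 4.99, 5.38 and 4.87 in the compound mutant. Its fold change of −0.44 (SE 0.10, adjusted p = 0.0542) was the largest of the set in Cilk1-/- and just missed the threshold, and it was at −0.34 (SE 0.11, adjusted p = 0.0934) in the compound mutant. Cdc20, which activates the anaphase-promoting complex, was at 5.98, 6.06, 6.05 and 6.16 in wild type, at 5.74, 5.74, 5.66 and 5.56 in Cilk1-/-, and at 5.78, 6.04 and 5.66 in the compound mutant. Cdc20 fell by 0.39 (SE 0.08, adjusted p = 0.0347) in Cilk1-/- and was at −0.23 (SE 0.08, adjusted p = 0.117) in the compound mutant. Bub1b, the checkpoint protein that holds CDC20 back, was at 5.03, 5.08, 5.16 and 5.12 in wild type, at 4.86, 4.85, 4.70 and 4.79 in Cilk1-/-, and at 4.73, 5.02 and 4.71 in the compound mutant. It was at −0.30 (SE 0.07, adjusted p = 0.0502) in Cilk1-/- and fell by 0.28 (SE 0.07, adjusted p = 0.0495) in the compound mutant. The Aurora kinase genes Aurka and Aurkb and the survivin gene Birc5, whose protein works with Aurora B, ranged from −0.33 to −0.25 in Cilk1-/- and from −0.25 to −0.18 in the compound mutant. After removal of compound mutant replicate 2, which partly sets the result, these 3 genes also fell in the compound mutant. Plk1 then fell by 0.49 (adjusted p = 0.00547), Cdc20 by 0.34 (adjusted p = 0.00967) and Bub1b by 0.38 (adjusted p = 0.00274).

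Kinetochore and spindle genes held both large and near-zero fold changes. Cenpe, a kinetochore motor, was at 3.69, 3.70, 3.72 and 3.82 in wild type, at 3.63, 3.57, 3.56 and 3.52 in Cilk1-/-, and at 3.17, 3.45 and 3.36 in the compound mutant. The 3 ranges did not overlap. Its fold change was −0.16 (SE 0.06, adjusted p = 0.161) in Cilk1-/-, and it fell by 0.41 (SE 0.06, adjusted p = 0.00989) in the compound mutant. Cenpf, another large kinetochore protein, was at 3.35, 3.42, 3.45 and 3.47 in wild type, at 3.45, 3.33, 3.31 and 3.30 in Cilk1-/-, and at 3.14, 3.36 and 3.26 in the compound mutant. Its fold changes were −0.08 (SE 0.06, adjusted p = 0.473) and −0.17 (SE 0.06, adjusted p = 0.108). Kif20a, a kinesin of the central spindle, was at 4.84, 4.93, 4.94 and 4.99 in wild type, at 4.69, 4.62, 4.56 and 4.58 in Cilk1-/-, and at 4.48, 4.73 and 4.37 in the compound mutant. Kif20a fell by 0.31 (SE 0.07, adjusted p = 0.0451) and by 0.40 (SE 0.08, adjusted p = 0.0177). Kif23, the kinesin of the centralspindlin complex in cytokinesis, was at 4.59, 4.63, 4.73 and 4.69 in wild type, at 4.49, 4.46, 4.36 and 4.43 in Cilk1-/-, and at 4.36, 4.48 and 4.35 in the compound mutant. Kif23 fell by 0.23 (SE 0.05, adjusted p = 0.0374) and by 0.26 (SE 0.05, adjusted p = 0.0187), so that Mki67, Kif20a and Kif23 were the 3 genes of the set past the adjusted threshold in both comparisons, which share the wild-type libraries. Nusap1, a microtubule-binding spindle protein, was at 4.66, 4.46, 4.78 and 4.60 in wild type, at 4.60, 4.72, 4.47 and 4.64 in Cilk1-/-, and at 4.51, 4.84 and 4.54 in the compound mutant. The genotypes overlapped, with fold changes of −0.01 (95% confidence interval −0.21 to 0.18) and 0.01 (−0.20 to 0.22). With compound mutant replicate 2 left out, Cenpe fell by 0.47 (adjusted p = 0.00219) and Cenpf by 0.22 (adjusted p = 0.0307) in the compound mutant. Kif20a then fell by 0.50 (adjusted p = 0.00109) and Kif23 by 0.30 (adjusted p = 0.00491). Nusap1 was at −0.10 (adjusted p = 0.449). The choice of the library left out partly sets these p-values.

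In the compound mutant against Cilk1-/-, which compares embryos with and without the 70 kb deletion on the Cilk1-/- background, no gene of the set passed the adjusted threshold. These groups also came mostly from different sets of libraries, described below. Of the 50 genes, 15 were below 0, against 49% of all genes, and the medians were 0.04 for S-phase and 0.02 for G2/M genes. By limma 0 were lower and 0 higher at an adjusted p under 0.05, against 2.15% and 1.18% of all genes. At an unadjusted p under 0.05, 2 were lower (Cenpe and Mki67), against 12.3%, and 2 were higher (Mcm10 and Foxm1), against 10.9%. Cenpe was at −0.25 (SE 0.06, 95% confidence interval −0.39 to −0.10, adjusted p = 0.0638) and Mki67 at −0.16 (SE 0.05, −0.27 to −0.04, adjusted p = 0.12). Mcm10 was at 0.19 (SE 0.06, 0.06 to 0.32, adjusted p = 0.1), Foxm1 at 0.14 (SE 0.06, 0.01 to 0.27, adjusted p = 0.195), Cdt1 at 0.21 (SE 0.10, −0.02 to 0.43, adjusted p = 0.252) and Cdc20 at 0.16 (SE 0.08, −0.03 to 0.34, adjusted p = 0.29). Gins2 and Pola1, at −0.16 (SE 0.09, adjusted p = 0.314) and −0.10 (SE 0.06, adjusted p = 0.294), completed the lowest 4 with Cenpe and Mki67. For other genes the intervals still allow differences in either direction, such as −0.11 to 0.28 for Mcm2, −0.17 to 0.25 for Pcna and −0.20 to 0.22 for Ccnb1.

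That comparison turned with compound mutant replicate 2. Without this library 46 of the 50 genes were below 0 in the compound mutant against Cilk1-/-, against 50.7% of all genes. The medians were −0.09 for both classes. Mcm4, Gins2, Pola1, Cdc25c and Cenpe then fell at an adjusted p under 0.05, against 4.19% of all genes. Their fold changes were −0.24, −0.29, −0.18, −0.25 and −0.31, and the removal partly sets this result. Mki67 was then at −0.19 (adjusted p = 0.0737), Mcm10 at 0.13 (adjusted p = 0.157), Foxm1 at 0.06 (adjusted p = 0.384), Cdt1 at 0.08 (adjusted p = 0.562) and Cdc20 at 0.05 (adjusted p = 0.659). Without compound mutant replicate 3, in contrast, 3 genes rose at that threshold (Mcm10, Cdt1 and Ccne1), which is 6% of the set against 4.42% of all genes.

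The library names in the labels start again from 1, and the extraction text differs, between a first set with wild-type and Cilk1-/- replicates 1 to 3 and a second with replicate 4 of both and all compound mutant libraries, although no label calls these sets. In the first set the median difference between Cilk1-/- and wild type was −0.25 for S-phase and −0.26 for G2/M genes. All 50 genes were lower there, against 49.4% of all genes. In the second set Cilk1-/- replicate 4 differed from wild-type replicate 4 by −0.24 and −0.38, with 47 genes lower, against 51.0% of all genes. Compound mutant replicates 1, 2 and 3 were lower than wild-type replicate 4, the only wild-type library of their set, for 50, 30 and 49 genes, against 50.7%, 50.2% and 52.5% of all genes. Their mean differed from Cilk1-/- replicate 4, the only Cilk1-/- library of their set, by medians of 0.05 for S-phase and 0.04 for G2/M genes. Genotype and set cannot be fully told apart in either comparison of the compound mutant. With the set as a term, 1 gene (Mcm10) fell at the adjusted threshold in Cilk1-/-, against 0.406% of all genes, and 0 in the compound mutant, against 0.0895%.

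Genes within the set moved together between libraries. After subtraction of the genotype means, the median correlation over the 11 libraries was 0.84 between pairs of S-phase genes, 0.84 between pairs of G2/M genes and 0.79 between the classes, as a description, since all points share the same libraries. Compound mutant libraries were spread most widely, with an SD of the class mean of 0.21 (S-phase) and 0.19 (G2/M). It was 0.05 and 0.06 in wild type and 0.07 for each class in Cilk1-/-. The correlations therefore rest largely on the compound mutant, replicate 2 included, and none is given for pairs of other genes. Mki67 followed the mean of the other 49 genes least (r = 0.45), then Cenpe (r = 0.64), E2f1 (r = 0.67) and Gins1 (r = 0.70), and Bub1b and Mcm5 followed it most closely (both r = 0.99). Exons of 12 of the 50 genes, Mcm7, Cdc20, Kif20a and Nusap1 among them, overlap a gene on the other strand in GENCODE vM21, and the sources used here do not state whether reads were counted by strand. Pcna, Tyms, Ccnb1 and Ccnb2 have an annotated processed copy elsewhere, and Foxm1 overlaps a gene on its own strand, so these levels are uncertain.

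Other genes of the same processes were mostly lower too. Of 48 further replication genes, such as origin recognition, polymerase and repair genes, 45 were below 0 in Cilk1-/- (median −0.19) and 43 in the compound mutant (median −0.15). In Cilk1-/- 3 of them fell at an adjusted p under 0.05, against 1.38% of all genes: Chtf18, of a clamp loader, by 0.35 (SE 0.05, adjusted p = 0.0152), Exo1, an exonuclease, by 0.32 (SE 0.07, adjusted p = 0.0436), and Rad54l, a recombination gene, by 0.22 (SE 0.05, adjusted p = 0.0473). In the compound mutant 6 fell (Rfc1, Pole, Clspn, Dscc1, Chtf18 and Exo1), against 3.75% of all genes. Dscc1, of the same clamp loader, fell most, by 0.38 (SE 0.07, adjusted p = 0.0133). Of 51 further mitosis genes, all 51 were below 0 in both mutants, with medians of −0.27 and −0.24. In Cilk1-/- 11 fell, against 1.38% of all genes. Among the 11 were Kif18b, a kinesin that shortens microtubules, by 0.43 (SE 0.08, adjusted p = 0.0293), and Cdc25b, a phosphatase that activates CDK1, by 0.26 (SE 0.04, adjusted p = 0.0139). In the compound mutant 13 fell, against 3.75% of all genes, and Ckap2, a spindle protein, fell most, by 0.39 (SE 0.08, adjusted p = 0.0196). Once compound mutant replicate 2 was removed, 28 of the 48 replication genes and 39 of the 51 mitosis genes fell in the compound mutant (medians −0.23 and −0.32), Dscc1 by 0.45 (adjusted p = 0.00234) and Ckap2 by 0.49 (adjusted p = 0.000966), against 10.4% of all genes. With the replicate block none of these genes passed in either comparison. These lists were chosen with earlier results of the same libraries known and do not count as independent support.

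Regulators of the cycle were split in direction. Of 23 such genes, 12 were below 0 in Cilk1-/- and 13 in the compound mutant, and none passed the adjusted threshold in Cilk1-/- by limma, where 5 of the 23 had an unadjusted p under 0.05, against 20.7% of all genes. Cdkn1a, which encodes the CDK inhibitor p21, was at 3.31, 3.98, 4.08 and 3.79 in wild type, at 4.31, 3.93, 3.89 and 4.05 in Cilk1-/-, and at 5.28, 4.50 and 4.93 in the compound mutant. Every compound mutant library was above every other library, replicate 2 the least so, and Cdkn1a rose by 1.11 (SE 0.21, adjusted p = 0.0176, 0.125 with the block). Cdkn1b, which encodes p27, was at 4.67, 4.75, 4.73 and 4.70 in wild type, at 4.83, 4.81, 4.83 and 4.82 in Cilk1-/-, and at 4.87, 4.88 and 5.12 in the compound mutant, where it rose by 0.24 (SE 0.06, adjusted p = 0.0344, 0.155 with the block). Lin54, the DNA-binding subunit of DREAM and MYB-MuvB, fell by 0.30 (SE 0.06, adjusted p = 0.0188, 0.154 with the block) in the compound mutant. In all, 1 of the 23 regulators fell and 2 rose there at the adjusted threshold, against 3.75% and 2.82% of all genes. Of 10 targets of p53, a list that also holds Cdkn1a, Trp53inp1 rose in Cilk1-/- by 0.36 (SE 0.08, adjusted p = 0.0427), and in the compound mutant Cdkn1a and Zmat3 (by 0.25, SE 0.05, adjusted p = 0.0266) rose and Eda2r fell by 0.27 (SE 0.05, adjusted p = 0.019). Of all genes, 1.06% rose at the adjusted threshold in Cilk1-/-. After removal of compound mutant replicate 2, Cdkn1a rose by 1.31 (adjusted p = 0.00417), Cdkn1b by 0.28 (adjusted p = 0.0126) and Zmat3 by 0.26 (adjusted p = 0.0181), Lin54 fell by 0.35 (adjusted p = 0.00471) and Eda2r by 0.27 (adjusted p = 0.0154), and 5 regulators were lower and 4 higher at the adjusted threshold in all. Of all 16755 genes 3312 then passed in either direction, and 10.4% were lower. With the block none of the regulators and p53 targets passed.

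Markers of tissues and cell types differed between the same libraries, in sums of the values turned back from the log2 scale. All 6 markers of dental epithelium and all 6 of dental mesenchyme were listed and high, with sums of 807 to 1019 and 647 to 746 in wild type, and 860 to 1072 and 580 to 695 in Cilk1-/-. In compound mutant replicates 1, 2 and 3 the epithelial sum was 471, 696 and 1104 and the mesenchymal sum 400.5, 694 and 455. Of these libraries, replicate 2, with the high replication and mitosis genes, had a mesenchymal sum in the wild-type range. In Cilk1-/- replicates 1 to 4 the mesenchymal sum was 681, 624, 695 and 580. There, replicate 3 had the highest mesenchymal sum but the lowest S-phase and G2/M means, 4.50 and 4.68. The 5 cartilage markers summed to 21.6 to 27.0 in wild type, to 22.2 to 34.1 in Cilk1-/- and to 591, 42.1 and 36.2 in compound mutant replicates 1 to 3. The 8 neuron markers summed to 18.1 to 23.8, to 29.4 to 32.5 and to 199, 34.0 and 61.7. The 9 listed of 10 erythroid markers summed to 2890 to 3784 in wild type, to 2964 to 4181 in Cilk1-/- and to between 1060 and 3810 in the compound mutant. The 8 enamel knot genes, Cdkn1a among them, summed to 56.8 to 92.3 in wild type, to 71.4 to 102.6 in Cilk1-/- and to between 67.2 and 175 in the compound mutant. The 7 muscle markers summed to 9.43 to 30.6, to 19.9 to 54.8 and to 7.33 to 8.63. The 5 endothelial, 5 listed of 6 macrophage and 5 bone markers ranged from 72.9 to 88.6, from 31.3 to 39.1 and from 134 to 220 in wild type, from 69.4 to 82.5, from 32.5 to 38.3 and from 150 to 198 in Cilk1-/-, and from 76.4 to 83.8, from 25.9 to 36.9 and from 95.1 to 302 in the compound mutant. Of the listed markers, Matn1 of cartilage and Bglap of bone had a value below 0 on the log2 scale in 1 library each, and no other listed marker was at or below 0. The part of these differences in the levels of the replication and mitosis genes was not tested.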

How the data were processed

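RNA of 11 libraries was sequenced as poly-A mRNA. The authors mapped reads with HISAT2 2.0.5 to mm10, counted them with featureCounts 1.5.0-p3 and calculated FPKM, per the study's methods and the submitters' processing notes. The deposited values are on a log2 scale, and 257 genes have a value below 0 in some library. How this table was made from the FPKM, and with which pseudocount or adjustment, is not given in the sources used here. No column of other samples was found.

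The 3 genotypes were compared with limma 3.58.1 in R 4.3.3 (lmFit and eBayes with trend and robust, one fit, no covariates, no filter on low values), with Benjamini-Hochberg adjustment over 16755 genes. Calls need an adjusted p-value under 0.05 and, where stated, a fold change of 1.5. If a pseudocount was added, fold changes understate those of low genes. Within each number, the deviations of the wild-type and the Cilk1-/- library from their genotype means run in opposite directions over all genes (r = −0.74, −0.89, −0.85 and −0.79), so these libraries are not independent, although no label says what a number stands for, and values with the number as a block are given too. The compound mutant libraries enter the block by number alone.

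The members and lists were chosen with earlier results of these data known. Members are given in every library if they passed both limits, were among the 4 highest or lowest of a comparison, or were among 12 anchor genes (Mki67, Pcna, Mcm2, Mcm6, Rrm2, Ccne1, E2f1, Top2a, Ccnb1, Cdk1, Plk1 and Foxm1). From the other lists, genes called or with the largest change were to be named. Mcm5, Uhrf1, Cdc6 and the genes past the adjusted p-value threshold alone were chosen after their values were seen. Promoters come from RefSeq (GRCm38.p6) and overlaps from GENCODE vM21. The fit was tested on simulated data. Plots were drawn with matplotlib 3.10.9 in Python 3.11.15. Alternatives were other scalings, a filter, a pseudocount of 0.1, other fits and leaving out each library.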

Additional observations from a re-analysis of the deposited data

Results flagged for a closer look

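Of 54 groups of 4 libraries tested for a value far from the others, 3 had one, and chance flags about 1 in 20 groups. Cdc25c in wild-type replicate 1 was at 4.04, with the other wild-type libraries at 4.15 to 4.17. Mcm10 in Cilk1-/- replicate 3 was at 3.09, with the others at 3.23 to 3.24. Gins2 in Cilk1-/- replicate 1 was at 4.61, with the others at 4.44 to 4.46. No 2 of these values come from the same library.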

How the results depend on the processing

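In Cilk1-/- against wild type, the 6 genes at an adjusted p under 0.05 became 0 with the replicate block and 0 with the compound mutant libraries placed in pair 4 of that block (chosen after seeing the data), 43 in a fit of only the 2 genotypes, 1 with the library set as a term, 10 among genes with a mean of at least 1, and 3 with median centring. In the compound mutant, the 7 became 0 with either block, 0 with only the 2 genotypes and 0 with the library set. Of the 16755 genes, 409 passed in Cilk1-/- in either direction in the main fit, and 6 and 4 with the blocks. The fit of only the 2 genotypes passed 2544, the library set 112 and median centring 277, and 422 of 13028 passed with the filter on the mean. For the compound mutant the counts over all genes were 1102 in the main fit, 28 and 0 with the blocks, 41 with only the 2 genotypes and 20 with the library set. Without the limit of 1.5 on the fold change, the 0 called genes of the set are the 6 and 7 of the main fit. Leaving out each library gave 0 to 34 genes in Cilk1-/-, 2 to 45 in the compound mutant and 0 to 5 in the compound mutant against Cilk1-/-, and 0 to 1 called genes in the compound mutant. The median of the S-phase genes ranged from −0.33 to −0.13 in the compound mutant and from −0.088 to 0.11 against Cilk1-/-, and that of the G2/M genes from −0.39 to −0.20 and from −0.094 to 0.089. At an unadjusted p under 0.05, the 33 genes of the compound mutant became 10 with the pair-4 block, and the 4 against Cilk1-/- became 2 and 1 with the blocks, which left the other counts and medians within 1.5 times. With each library left out in turn, the 33 became 16 to 48 and the 4 became 3 to 11. Signs turned for the class medians against Cilk1-/- and for 3 genes, Nusap1, Ccne2 and Cdt1. In Cilk1-/-, the fold change of Nusap1 was 0.016 with quantile normalization and −0.070 to 0.036 with each library left out in turn, and that of Ccne2 was −0.045 to 0.019 with each left out. In the compound mutant, Nusap1 was at −0.011 with median centring and Ccne2 at −0.011 with median centring and −0.050 with quantile normalization. With each library left out in turn, Nusap1 was at −0.098 to 0.068, Ccne2 at −0.072 to 0.064 and Cdt1 at −0.25 to 0.0080. The cause was not tested. The depth behind the values is unknown, so its limits cannot be given.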

Other observations

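Transcript length went with the differences of the G2/M genes in Cilk1-/-, but hardly with those of the compound mutant against wild type. Over the 25 G2/M genes, the Spearman correlation of the log2 difference between compound mutant and Cilk1-/- with the length of the longest GENCODE transcript was −0.56, against −0.10 over 15955 genes with a matched symbol and −0.23 over the 51 further mitosis genes. The difference between Cilk1-/- and wild type had a correlation of 0.65 with length over the same 25 genes, 0.35 over the 51 further mitosis genes and 0.10 over all matched genes. For the compound mutant against wild type it was −0.04 over the 25 G2/M genes, 0.14 over the further mitosis genes and −0.02 over all matched genes. Over the 25 S-phase genes it was −0.10 for the compound mutant against Cilk1-/-, 0.32 for Cilk1-/- against wild type and 0.30 for the compound mutant against wild type. These are descriptions across genes, which share all libraries and the Cilk1-/- group, and the relation was noticed in the data before it was computed. Cenpf, Mki67 and Cenpe have the longest transcripts of the set, at 11130, 10061 and 7910 bases, and Cenpe and Mki67 were also the 2 genes with the lowest correlation with the mean of the other genes.

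Compound mutant replicate 2 did not rank alike for all genes. It held Mki67 at 5.24 and Cenpe at 3.45, below the 4 Cilk1-/- libraries, whose lowest were 5.30 and 3.52, and it held Mcm2 at 5.58, above the highest wild-type value of 5.57.

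The difference between the mean of the G2/M genes and that of the S-phase genes was 0.20 to 0.27 in wild type, 0.14 to 0.19 in Cilk1-/-, and 0.09, 0.15 and 0.23 in compound mutant replicates 1, 2 and 3.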
